A study of Mus musculus with 2 samples.

Results

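The proximal end of the mouse Tcra/Tcrd locus held 18 of the 51660 CTCF regions found on autosomes and the X chromosome in 1 ChIP-seq library of double-positive thymocytes. Its members were all regions with their midpoint between positions 54620000 and 55000000 of chromosome 14 in mm9. This window of 380 kb runs from the last V segments and the delta segments through Trdc, the J alpha array, Trac and the alpha enhancer to Dad1 and the genes beyond it. Members were taken by position alone, but the choice was made with earlier results of these data known.

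The study immunoprecipitated chromatin of CD4+CD8+ thymocytes with an anti-CTCF antibody, and its labels also list an input library, which was not analysed here. Both libraries came from C57BL/6 mice of 4 to 8 weeks that were Rag1-/- and carried a rearranged T cell receptor beta transgene. The thymocytes were fixed with 1% formaldehyde for 10 minutes. Without Rag1 the endogenous receptor genes are not cut and joined, so the Tcra/Tcrd locus stays in its germline order, and the transgene supplies the beta chain that lets thymocytes reach the double-positive stage. The labels name neither the promoter of the transgene nor any pooling of mice. Nor could the labelled cell type be checked against marker genes, since a list of bound positions holds no expression values.

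Tcra and Tcrd form one locus. The D, J and constant segments of the delta chain lie between the V segments and the J alpha segments, and joining a V to a J alpha segment deletes them. Transcription that opens the J alpha array starts from the T early alpha promoter at its 5′ end, under the control of the alpha enhancer on the far side of Trac. CTCF, with cohesin, holds distant DNA sites together in loops, and CTCF sites near this promoter and this enhancer are part of the published picture of the locus. Dad1, just past the enhancer, encodes a subunit of the oligosaccharyltransferase that attaches sugars to proteins and is used by most cells.

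In the RefSeq gene order (GRCm38, used for names and order only) Trav23, Trdv3, Gm30275, Trdv4, Trdd1, Trdd2, Trdj1 and Trdj2 stand before Trdc. Trdv5, a V segment used in delta chains, and 60 J alpha segments, 9 of them pseudogenes, stand between Trdc and Trac. No gene stands between Trac and Dad1, and Abhd4 and Olfr49 follow Dad1. To place the regions along this order, the window was cut into 6 zones. Their bounds are rounded to 10 kb, come from general knowledge of mm9 and were not checked against an mm9 annotation. A region is therefore placed in a zone that is named for a gene, and not in that gene, an exon or a promoter.

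The file gives positions of peak windows only, so the width of a region and its distance to the next one are the available measurements. Width depends on the fragment length and on the authors' threshold as well as on binding, and it is not a height. With 1 library there was no replicate, no difference was tested, and intervals cover counting error only.

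From low to high coordinates, the regions fell into a lone first site, a run of 10 sites that ended in the J alpha zone, a pair of sites in the Trac and Dad1 zones, and a run of 5 beyond the Dad1 zone. These 4 groups were separated by the 3 distances of at least 40 kb in the window. The bounds of the window cut the first and last groups. The next region outside was 23.1 kb from the first site and 35.125 kb from the last. By the same 40 kb limit, the first site is therefore alone only within the window. The widest region of the window, 975 bp, was in the zone of Trac and the enhancer with the bounds as drawn, and the longest distance, 68.25 kb, came directly after the region in the Dad1 zone.

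**Figure D1:**
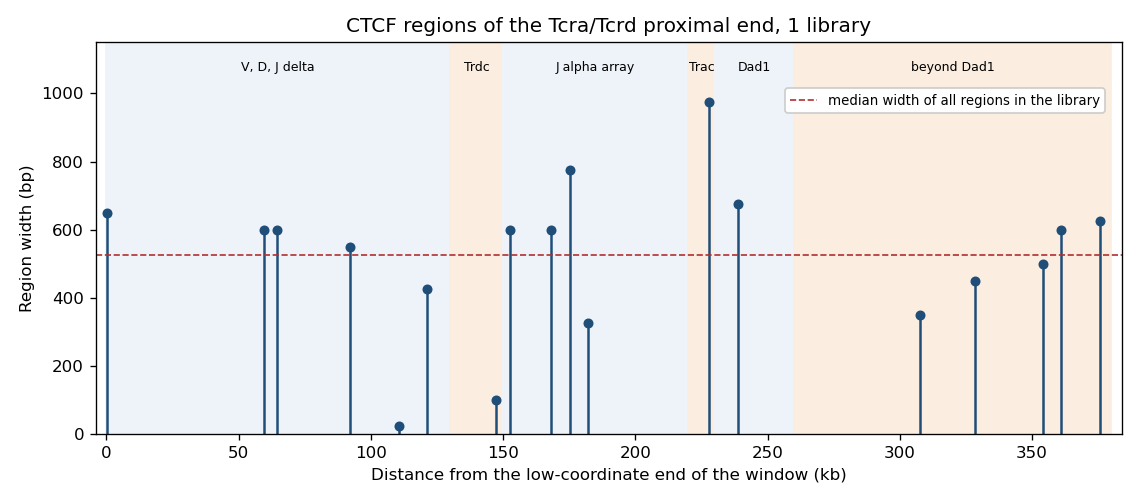
Each point is 1 CTCF region of the single library, placed by the distance of its midpoint from the low-coordinate end of the window (x axis, kb) and by its width (y axis, bp). Shading marks the 6 zones, with the alpha enhancer in the Trac zone, and the dashed line the median width of all regions (525 bp); the region of 975 bp in the Trac zone stands highest, with no region for 45.225 kb below it.

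The delta end of the locus, before Trdc, held 6 regions in 130 kb (54620000 to 54750000). The first, of 650 bp at chr14:54620045-54620694, had its midpoint 0.369 kb inside the window. No region was listed for the next 58.625 kb. A pair of equal width followed, 600 bp at chr14:54679320-54679919 and 600 bp at chr14:54684045-54684644, only 4.125 kb apart, which was the shortest distance in the window. After it came regions of 550 bp at chr14:54711995-54712544, 25 bp at chr14:54730820-54730844 and 425 bp at chr14:54741095-54741519. The region of 25 bp was a single listed window and the only member of at most 75 bp. Of the 6 regions here, 4 were wider than the library's median of 525 bp, and the 2 nearest to Trdc were narrower. Over the library, 47.9% of regions were at least 550 bp wide, and 6 regions are too few to read a pattern from.

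The Trdc zone, with the constant gene of the delta chain and Trdv5 (54750000 to 54770000), held a single narrow region of 100 bp at chr14:54767295-54767394. It was separated from the last region of the delta end by 25.775 kb and from the first region of the J alpha zone by 5.025 kb. Of all regions in the library, 85.9% were at least as wide.

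The J alpha zone (54770000 to 54840000) held 4 regions, all in its 5′ part with the bounds as drawn. The first was 600 bp wide at chr14:54772420-54773019. It was followed by 600 bp at chr14:54787970-54788569, 775 bp at chr14:54794820-54795594 and 325 bp at chr14:54801770-54802094. The last 3 were nearly evenly spaced, with 6.25 and 6.175 kb between them. The region of 775 bp was the second widest of the window, and 4.31% of all regions were at least as wide. Beyond position 54802094 no region was listed for 45.225 kb. This gap takes in the remaining 3′ part of the J alpha zone and the Trac zone below position 54847320.

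The zone of Trac, the constant gene of the alpha chain, and of the alpha enhancer (54840000 to 54850000) held 1 region, of 975 bp at chr14:54847320-54848294. Only 1.33% of all regions and 1.18% of the 2027 regions on chromosome 14 were at least as wide. It lay 74.3 kb from the first region of the J alpha zone, with 3 regions between them. The Dad1 zone (54850000 to 54880000) also held 1 region, of 675 bp at chr14:54858520-54859194, 10.225 kb from that of 975 bp, and 12.1% of all regions were at least as wide. This pair was set off on both sides, by 45.225 kb towards the J alpha zone and by 68.25 kb towards the genes beyond Dad1. Of all distances between neighbouring regions in the library, 20.5% were longer than 45.225 kb and 13.4% longer than 68.25 kb, so each gap on its own was long but not rare.

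These zone assignments depend on the bounds, while the positions, widths and distances do not. With all inner bounds moved 10 kb down, the Trac zone held 0 regions and the regions of 975 and 675 bp were both in the Dad1 zone. The region of 100 bp was then in the J alpha zone, and the Trdc zone held that of 425 bp instead. With the bounds moved 10 kb up, the region of 975 bp was in the J alpha zone, so the regions there were no longer all in its 5′ part. The Trac zone then held the region of 675 bp, the Dad1 zone held 0, and the Trdc zone held 2, the region of 100 bp and the first of 600 bp after it.

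Beyond Dad1, where Abhd4 and Olfr49 come next in the gene order, 5 regions were listed in the last 120 kb of the window. They were 350 bp wide at chr14:54927445-54927794, 450 bp at chr14:54948195-54948644, 500 bp at chr14:54973995-54974494, 600 bp at chr14:54980595-54981194, and the fifth, at chr14:54995470-54996094, was as wide as the upper quartile of the library. Each was wider than the one before it, and none reached the width of the pair in the Trac and Dad1 zones. The distances within this run were 20.4, 25.35, 6.1 and 14.275 kb.

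Across the 17 distances between neighbours, the median was 14.95 kb, beside 13.1 kb over the library. The upper quartile over the library was 36.7 kb. The share of distances of at least 40 kb was 3 of 17 (17.6%) in the window and 23.1% in the library. These 3 gaps made up 172.1 kb, or 45.3% of the window. The share of length in such gaps over the library is not given, so the 45.3% does not show that the window is unusual. At the short end, 0 of 18 regions had a neighbour within 1 kb, whereas 26.8% of all regions did. Of all distances in the library, 10% were at most 0.225 kb and 4% were 0.025 kb, the length of a single window. Some of these close neighbours may be parts of the same peak that the joining at 0 bp left apart, which was not tested. The distance from a member to its nearest region was 4.125 to 23.1 kb, with a median of 8.2375 kb, and the median over the library was 4.97 kb.

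**Figure D2:**
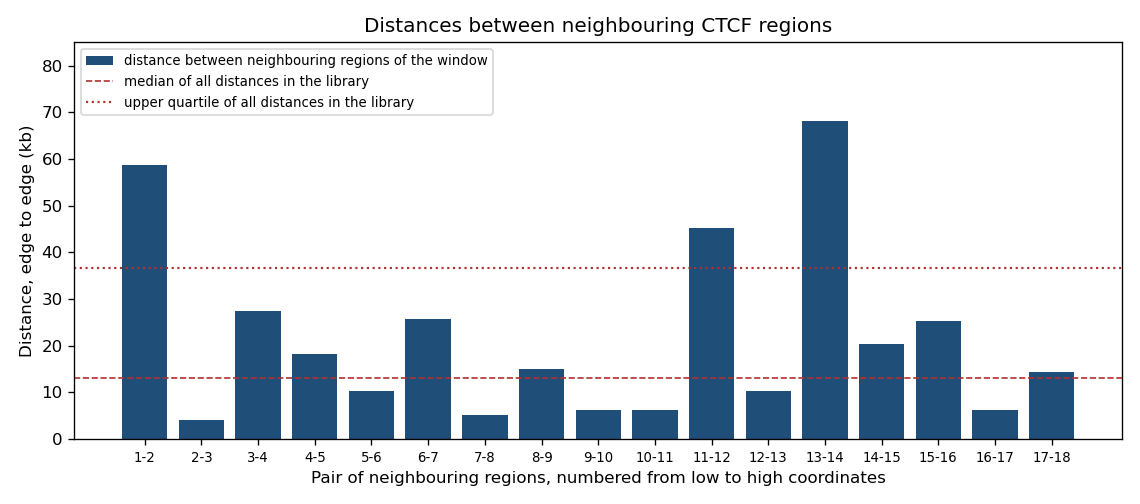
Bars give the edge-to-edge distance (y axis, kb) between neighbouring CTCF regions of the window, numbered 1 to 18 from low to high coordinates (x axis). The dashed and dotted lines mark the median (13.1 kb) and upper quartile (36.7 kb) of all distances in the library; 3 bars pass the dotted line, at 58.625, 45.225 and 68.25 kb, and the last 2 flank the pair in the Trac and Dad1 zones.

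Widths of the 18 regions ran from 25 to 975 bp, with a median of 600 bp and a mean of 524 ± 225 bp (SD across regions). The library's median was 525 bp. At least 525 bp was reached by 11 of 18 regions (61.1%), beside 51.8% of all regions, and the upper quartile of the library by 5 of 18 (27.8%), beside 29.9%. At most 75 bp was seen in 1 of 18 (5.56%), beside 14.1%. A width of 600 bp was the commonest, with 5 members spread over the delta end, the J alpha zone and the run beyond Dad1. With so few members, the differences between these shares and those of the library were not tested and are not read as a pattern. The regions of 775 and 975 bp lay in the upper tail of the library's widths, and that of 25 bp had the smallest width that the file allows.

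**Figure D3:**
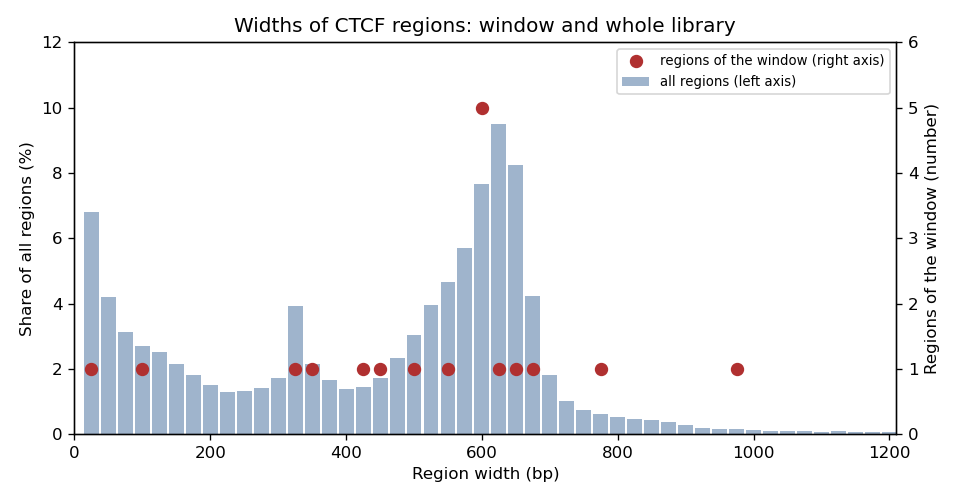
Red points give the number of regions of the window at each width (right axis) and bars the share of all regions in the library (left axis, %), both by width in bp (x axis, drawn to 1200 bp). Most members lie in the main hump of the library, with 5 at 600 bp, while those of 775 and 975 bp lie in its thin upper tail.

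Set against its surroundings, the window was dense for the genome but thinner than the stretches on either side. Its 18 regions correspond to 4.74 per 100 kb (exact 95% Poisson interval 2.81 to 7.49), while the rest of chromosome 14 held 1.61 per 100 kb and the library as a whole 1.96. When the chromosomes were tiled in stretches of 380 kb, 13.5% of 6930 stretches held at least 18 regions. The median was 4, with a lower quartile of 0 and an upper quartile of 12. Chromosome lengths ran to the last listed region, and empty sequence was not left out of the densities or the tiles. The longest distance in the library was 14166.125 kb, and how much of the empty sequence could be mapped was not examined. The neighbouring 380 kb towards the V segments held 40 regions (10.5 per 100 kb, 7.52 to 14.3), and the 380 kb above the window held 37 (9.74 per 100 kb, 6.86 to 13.4). The interval of the window overlapped that of the stretch above and just missed that of the stretch below. Whether such intervals overlap is not a test of a difference, and they cover counting error only. Regions as little as 0.025 kb apart were counted separately in both neighbouring stretches. Joining such regions would lower those counts, and intervals after joining are not given. The narrow miss may therefore depend on the joining rule.

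Other measures of the 3 stretches are set side by side here, with no test. Regions with a neighbour within 1 kb numbered 0 of 18 in the window, 12 of 40 below it and 12 of 37 above it. The shortest distance was 0.025 kb in both neighbouring stretches, so these counts may include parts of the same peak. Regions of at most 75 bp numbered 1 of 18, 7 of 40 and 6 of 37 in the same order. In the library they made up 14.1% of all regions. The longest distance was 68.25 kb in the window, 44.825 kb below it and 28.8 kb above it. Covered bases made up 2.48% of the window, 5.13% of the stretch below and 4.61% of the stretch above. The nearest region outside the window was 525 bp wide at chr14:54596420-54596944 on the low side, with its midpoint 23.3 kb from the bound, and 50 bp wide at chr14:55031220-55031269 on the high side, 31.2 kb from it. On the inside, the last member had its midpoint 4.22 kb from the high bound.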

How the data were processed

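The authors deposited 912174 windows, each 25 bp long and given by chromosome, start and end, that lay in peaks of the CTCF library. The file holds no count, height or score, so depth is unknown. The submitters' processing notes name Bowtie and mm9. The aligner version, the peak caller with its threshold, and how the input served are not given in the sources used.

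Adjoining windows (0 bp between them) were merged into regions, without the 1 region on mitochondrial DNA. Starts were read as counted from 0, and positions are printed counted from 1. The joining step was tested on simulated data. Poisson intervals are exact, at 95%. The genes named in the text are Trdc, Trac and Dad1 with the elements between them and the next genes in RefSeq order, and each region is given. The members, zones and comparisons were chosen with earlier results of these data known. No mm9 sequence was used here, so no bases of a region are printed. The software was matplotlib 3.10.9, NumPy 2.4.6, SciPy 1.17.1 and pandas 2.3.3 under Python 3.11.15.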

Additional observations from a re-analysis of the deposited data

How the results depend on the processing

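Joining regions at most 100, 500 or 1000 bp apart changed none of the counts, the median width or the median distance in the window, and counting any overlap with the bounds gave the same 18 regions. The shortest distance in the window was 4.125 kb, so joining could change nothing there. Results of such joining are not given for the neighbouring stretches or the whole library. Leaving out regions of at most 75 bp left 17 regions with the same median width of 600 bp, and the median distance was then 17.675 kb in place of 14.95 kb, because the region of 25 bp no longer divided a gap. Measured between midpoints, the median distance was 15.55 kb. Moving the inner zone bounds 10 kb down gave 0 regions in the Trac zone and 2 in the Dad1 zone. Moving them 10 kb up gave 2 in the Trdc zone and 0 in the Dad1 zone. The other zone counts stayed within 1.5 times, but not always with the same regions: with the bounds moved up, the J alpha zone still held 4 but had gained the region of 975 bp and lost its first of 600 bp, and the Trac zone held that of 675 bp. With the bounds moved down, the 1 region of the Trdc zone was that of 425 bp. The planned use of a peak height was not run, because the file has none. No paired analysis was possible because there is 1 CTCF library. A position that is not listed may still be bound below the authors' threshold.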

Other observations

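The pair of regions in the Trac and Dad1 zones was compared with other neighbouring pairs in a count chosen after its values were seen. Of 51600 pairs of neighbours, 863 (1.67%) were no more than 10.225 kb apart and at least 45.225 kb from the next region on both sides. In 9 of these 863 pairs, the one in the Trac and Dad1 zones included, both regions were at least 675 bp wide. All these limits are the pair's own values. Of single regions in the library, 12.1% were at least 675 bp wide. The share of all 51600 pairs with both regions that wide is not given, so the 9 pairs do not show that such widths are unusual.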
